A study of Mus musculus with 17 samples.

Results

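The transcripts of the mouse mitochondrial genome and of its near-identical nuclear copies were followed in adult frontal cortex. The set was chosen by name, with earlier results of these data known, and the rule uses no measured value. It holds the 37 genes whose symbols start with mt-, namely 13 mRNAs, 2 rRNAs and 22 tRNAs, and 8 nuclear pseudogenes copied from mitochondrial mRNA genes. These are 45 of the 48440 genes in the table. Frontal cortex was taken at postnatal day 189 from 17 male C57BL/6J offspring. In 9 of them the dam had received Poly(I:C), a synthetic double-stranded RNA that triggers antiviral immune signalling, once by intraperitoneal injection of 20 mg/kg in saline on gestational day G12.5. In the other 8 the dam had received saline alone. The labels mention 11 dams without tying offspring to litters, so littermates may have been treated here as independent animals. The libraries were made from polyadenylated RNA, kept the strand and were read as single 100-base reads.

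Mitochondrial DNA is transcribed along its whole length from both strands into long precursors, which are cut largely at the tRNAs that lie between the other genes. The mRNAs encode core subunits of respiratory complexes I, III, IV and V, and the tRNAs and rRNAs serve the translation of those mRNAs inside the organelle. Most mitochondrial mRNAs carry short A tails, which in several cases also complete the stop codon. Pieces of mitochondrial DNA have entered nuclear chromosomes repeatedly, and a recent insertion keeps almost the original sequence. In brain, respiration supplies most of the ATP that neurons use for ion pumping and synaptic transmission.

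Of the 8 copies, 7 lie side by side on the minus strand of chromosome 1, from base 24611535 to base 24616197 of GRCm38, in the order of the mitochondrial genes they match. From the first to the last along that strand they are Gm29216 (mt-Co1), Gm28661 (mt-Co2), Gm10925 (mt-Atp6), Gm28437 (mt-Co3), Gm28438 (mt-Nd3), Gm10222 (mt-Nd4l) and Gm28439 (mt-Nd4). Gm13340, a copy of the whole of mt-Co1, lies on chromosome 2 from base 22588103 to base 22589647, also on the minus strand. All 8 are annotated as unprocessed pseudogenes. Gm28661, Gm10925, Gm28437, Gm10222 and Gm28439 matched their mitochondrial gene at 100% over 681, 678, 783, 294 and 876 bases. Gm28438 differed from mt-Nd3 by the single substitution T3C over 345 bases, and Gm29216 differed from mt-Co1 by A1066T over an alignment of 483 bases. That alignment leaves out the first 9 bases of Gm29216, of which 5 also differ. Positions are counted from 1 at the start of the mitochondrial transcript, whose base is given first. Gm13340 is the most diverged, at 97.6% identity with 37 substitutions over 1545 bases.

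The ends of 3 gene and copy pairs are shown because they hold the only bases by which the annotated transcripts differ. Capitals mark bases that the mitochondrial transcript has beyond the end of the copy: the stop codon of mt-Co2 and of mt-Atp6, and the last base of mt-Co3, whose stop codon is completed by the A tail. In GRCm38 these stretches lie at chrM:7652-7696, chrM:8563-8607 and chrM:9348-9390 on the plus strand, and at chr1:24614885-24614926, chr1:24613974-24614015 and chr1:24613189-24613230 on the minus strand.
mt-Co2: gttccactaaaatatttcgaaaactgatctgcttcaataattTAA
Gm28661: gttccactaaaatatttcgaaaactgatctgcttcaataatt
mt-Atp6: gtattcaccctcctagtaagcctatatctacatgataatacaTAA
Gm10925: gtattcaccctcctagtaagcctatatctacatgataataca
mt-Co3: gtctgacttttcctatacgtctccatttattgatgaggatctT
Gm28437: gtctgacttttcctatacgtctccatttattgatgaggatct

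The mt-Nd3 and mt-Co1 pairs are shown where their bases differ, with the differing bases in capitals. The mt-Nd3 stretch lies at chrM:9459-9486 on the plus strand and its counterpart at chr1:24613092-24613119 on the minus strand. The mt-Co1 stretch lies at chrM:6381-6418 on the plus strand, and the first bases of Gm29216 lie at chr1:24616160-24616197 on the minus strand.
mt-Nd3: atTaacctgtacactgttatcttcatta
Gm28438: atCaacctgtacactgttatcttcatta
mt-Co1: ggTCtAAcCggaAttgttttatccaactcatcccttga
Gm29216: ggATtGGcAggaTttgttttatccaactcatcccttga

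Between the annotated transcripts, a 100-base read can be assigned by its sequence only where it covers such a base. Of the 585 windows of 100 bases in mt-Co2, 3 (0.513%) were absent from Gm28661. The same count was 3 of 582 (0.515%) for mt-Atp6, 1 of 685 (0.146%) for mt-Co3, 3 of 198 (1.52%) for mt-Nd4l and 6 of 249 (2.41%) for mt-Nd3. For these genes a read from almost any position matches both loci. For mt-Nd4, 502 of 1279 windows (39.2%) were absent from Gm28439, which copies only its first part, and for mt-Co1, 1066 of 1446 (73.7%) were absent from Gm29216. In the other direction, 0 windows of Gm28661, Gm10925, Gm28437, Gm10222 or Gm28439 were absent from the mitochondrial gene. The windows were taken within annotated transcripts, so reads running into an A tail or into a neighbouring gene were not considered. Chromosome 1 beyond the annotated ends of the copies was not compared either. The submitters' notes name RSEM, which divides reads matching several transcripts by estimated proportions, so each of these genes was also described as the sum of its row and its copy.

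All 22 mitochondrial tRNA genes were listed at 0 TPM (transcripts per 1e+06 transcripts) in all 17 libraries. They are 59 to 75 bases long, so each is shorter than a read. Of the 2367 genes in the table whose longest annotated transcript is under 100 bases, 0 had a value above 0 in any library, against 26386 of 45691 longer genes (57.7%). The zeros of the tRNAs are therefore shared with every other short gene and give no level for them. The longest, mt-Tl1, the tRNA for leucine that lies between mt-Rnr2 and mt-Nd1 at chrM:2676-2750 on the plus strand, is shown to its full length.
mt-Tl1: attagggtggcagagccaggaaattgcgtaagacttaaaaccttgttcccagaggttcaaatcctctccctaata

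The other 23 rows all passed the filter of at least 1 TPM in at least 8 libraries. Members filled the first 12 places when all rows of the table were ranked by mean TPM, and no single row held more than 6.74% of a library's TPM. All 45 rows together held 37.6% of the TPM in the lowest Poly(I:C) library, 40.1% at the median and 42.7% in the highest. The saline libraries ran from 36.5% through a median of 38.5% to 41.7%. The groups overlapped over most of their range, and 8 of 9 Poly(I:C) libraries lay above the saline median. The means were 40.0% ± 1.52 (SD, n = 9) and 39.0% ± 1.64 (SD, n = 8), a difference of 1.08 percentage points that is smaller than either SD. In whole tissue, fewer cells of a kind and less RNA per cell cannot be told apart.

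The nuclear copies alone were credited with 16.0% ± 0.620 of the TPM among Poly(I:C) offspring (SD, n = 9) and 15.6% ± 0.746 among saline offspring (SD, n = 8). The rows of the mitochondrial genes held 24.0% ± 0.959 and 23.3% ± 0.928. As a part of the members' own TPM the copies held 40.1% ± 0.526 among Poly(I:C) offspring and 40.2% ± 0.474 among saline offspring, with a range of 39.4% to 41.0% over the 17 libraries. This division between mitochondrial and nuclear rows varied less between libraries than the total did.

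Complex IV, cytochrome c oxidase, which passes electrons to oxygen, had the largest part of the mRNA levels when the TPM of gene and copy were simply added. With copies weighted by their length relative to the gene, a scale chosen after the data were seen, complex IV exceeded complex V in only 8 of 17 libraries. In the plain sum its mt-Co1, mt-Co2 and mt-Co3 mRNAs held 13.42% ± 0.430 of the TPM among Poly(I:C) offspring (SD, n = 9) and 13.01% ± 0.596 among saline offspring (SD, n = 8). mt-Co1, the catalytic subunit, summed with Gm29216 and Gm13340, had the highest level of all, from 68052 through 72755 to 77212 TPM (lowest, median, highest) among Poly(I:C) offspring. Among saline offspring it ran from 66028 through 69278 to 77370 TPM, a range that holds the whole Poly(I:C) range. mt-Co2, the subunit that accepts electrons from cytochrome c, summed with Gm28661, ran from 39373 through 42375 to 45401 TPM among Poly(I:C) offspring and from 38818 through 41233 to 44320 TPM among saline offspring. mt-Co3, the third core subunit, summed with Gm28437, ran from 17709 through 19212 to 20328 TPM and from 16804 through 18057 to 19135 TPM. In mt-Co2 the groups nearly coincided, whereas 5 of the 9 Poly(I:C) libraries lay above the highest saline library in mt-Co3.

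Complex V is the ATP synthase, and its 2 mitochondrial subunits sit in its membrane part. mt-Atp8 and mt-Atp6 are read from the same transcript and overlap by 43 bases, shown in capitals in the last 53 bases of mt-Atp8 at chrM:7917-7969 on the plus strand.
mt-Atp8: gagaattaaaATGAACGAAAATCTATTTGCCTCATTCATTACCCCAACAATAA
The capitals open with the start codon of mt-Atp6 and are also the first bases of its copy Gm10925. mt-Atp8, which has no copy of its own in the set, ran from 56534 through 61951 to 67437 TPM among Poly(I:C) offspring and from 53054 through 60169 to 63274 TPM among saline offspring. mt-Atp6 summed with Gm10925 ran from 49753 through 53921 to 59962 TPM and from 46335 through 52510 to 55348 TPM. In both genes 4 Poly(I:C) libraries exceeded the highest saline library, and the rest overlapped. Although the 2 open reading frames share a transcript, the level of mt-Atp8 was 1.13 ± 0.0513 times that of mt-Atp6 among Poly(I:C) offspring (SD, n = 9) and 1.15 ± 0.0584 times among saline offspring (SD, n = 8).

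Complex I, NADH dehydrogenase, takes 7 mitochondrial subunits, which together held 11.0% ± 0.492 of the TPM among Poly(I:C) offspring (SD, n = 9) and 10.8% ± 0.434 among saline offspring (SD, n = 8). Over all 17 libraries the levels with copies summed were 28601 ± 1347 TPM for mt-Nd1, 24684 ± 1294 for mt-Nd4, 22206 ± 1232 for mt-Nd2 and 16840 ± 1149 for mt-Nd4l (SD, n = 17). The remaining levels were 12482 ± 589.8 TPM for mt-Nd5, 4057 ± 332 for mt-Nd3 and 225 ± 49.9 for mt-Nd6. mt-Nd4l and mt-Nd4 overlap in the genome and share 1 transcript, and the ratio of mt-Nd4 to mt-Nd4l ran from 1.40 through 1.53 to 1.72 among Poly(I:C) offspring and from 1.31 through 1.38 to 1.59 among saline offspring. Every one of the 9 Poly(I:C) libraries lay above the saline median of that ratio, and 2 lay above the highest saline library. The ratio was not tested, and its mt-Nd4 level adds the TPM of the shorter copy Gm28439 without weighting by length. mt-Nd6, the single mRNA encoded on the other strand, ran from 182 through 210 to 298 TPM among Poly(I:C) offspring and from 156 through 191 to 329 TPM among saline offspring. Its values had a coefficient of variation of 22.7%, the widest of the 15 sums, and the saline range held all of the Poly(I:C) libraries.

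Complex III is represented by mt-Cytb alone, the cytochrome b subunit, which has no copy in the set. It ran from 29721 through 31700 to 33797 TPM among Poly(I:C) offspring and from 30408 through 31481 to 34699 TPM among saline offspring. The rRNAs of the small and large mitochondrial ribosomal subunits, mt-Rnr1 and mt-Rnr2, ran from 3537 through 4633 to 5544 TPM and from 2836 through 3618 to 4422 TPM among Poly(I:C) offspring. Among saline offspring mt-Rnr1 ran from 3703 through 4164 to 5156 TPM and mt-Rnr2 from 3128 through 3267 to 4127 TPM. Both rRNAs had a wider Poly(I:C) than saline range, with 1 Poly(I:C) library beyond each end. The libraries were selected for polyadenylated RNA, so these values are not levels of total rRNA. For the same reason the values of mt-Nd6 are not levels of its total RNA. The ratio of mt-Rnr1 to mt-Rnr2 was 1.27 ± 0.0304 (SD, n = 9) and 1.24 ± 0.0406 (SD, n = 8).

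**Figure D1:**
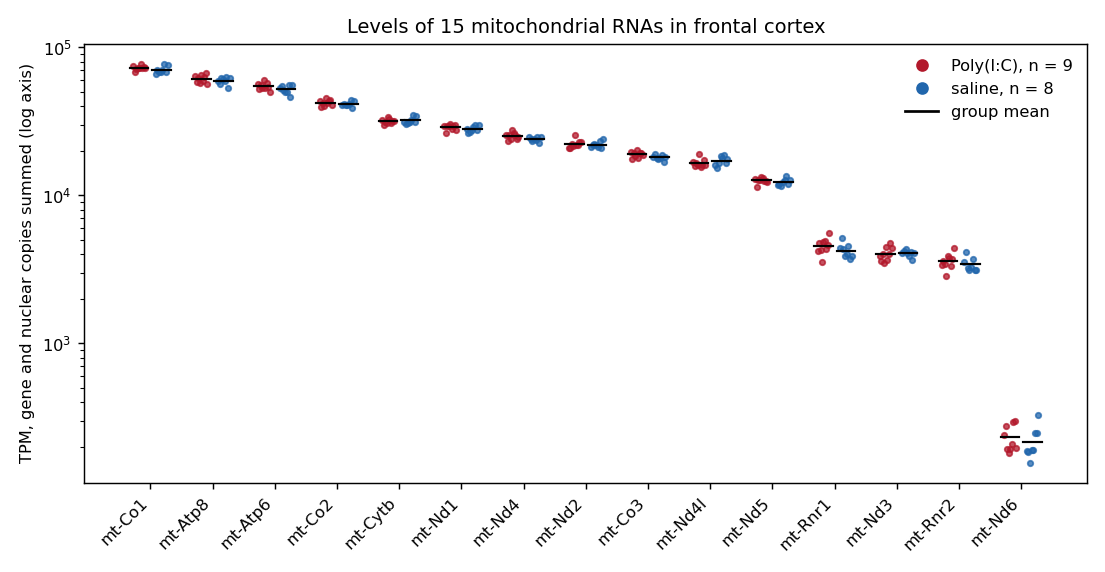
TPM on a log axis for the 13 mRNAs and 2 rRNAs with their nuclear copies summed, 1 point per library (9 Poly(I:C), 8 saline), with bars for the mean. Levels span from 225 TPM for mt-Nd6 to 71795 TPM for mt-Co1 as means over the 17 libraries, and the groups overlap in all 15.

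With copies summed, the order of mean levels, which are per length, was mt-Co1, mt-Atp8, mt-Atp6, mt-Co2, mt-Cytb, mt-Nd1, mt-Nd4, mt-Nd2, mt-Co3, mt-Nd4l, mt-Nd5, mt-Rnr1, mt-Nd3, mt-Rnr2 and mt-Nd6. Most neighbours in that order kept it in 17 of 17 libraries. The exceptions were mt-Co3 above mt-Nd4l in 14 of 17, mt-Rnr1 above mt-Nd3 in 13 of 17 and mt-Nd3 above mt-Rnr2 in 16 of 17. Adding the TPM of a gene and a shorter copy counts the copy's reads per shorter length. When copies were instead weighted by their length relative to the gene, mt-Atp8, whose annotated transcript is only 204 bases long, came first. On that scale mt-Co1, at 54756 TPM among Poly(I:C) offspring and 52580 TPM among saline offspring, exceeded mt-Atp6 in only 9 of 17 libraries. Taken row by row without any sum, mt-Co2 stood 59th, mt-Co3 136th and mt-Nd6 462nd among all genes, whereas Gm10925 stood 2nd and Gm28661 4th.

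With copies summed, 0 of the 14136 genes tested passed an adjusted p of 0.05 between the groups (limma on log2(TPM + 1), Benjamini-Hochberg), which is 0.00% called, so none of the 15 mitochondrial sums did. At an unadjusted limma p of 0.05 the count was 1237 genes, or 8.75%, and a rank test gave 0 calls and 1131 genes. mt-Co3 and mt-Nd4, 2 of the 15 sums, were under that unadjusted threshold, both higher among Poly(I:C) offspring. Of all genes, 0.891% were under it and higher. Under median-of-ratios scaling the same 2 sums were under it, beside 567 of the 14136 genes under it and higher. Over the alternative settings the count of sums ran from 0, as without Poly(I:C) replicate 5, to 4 without saline replicate 6. The rank test gave 1. mt-Co3 was higher among Poly(I:C) offspring by 0.07 ± 0.030 (SE) on the log2 scale, with a 95% interval from 0.0089 to 0.135 and a limma adjusted p (Benjamini-Hochberg) of 0.546. mt-Nd4, whose groups ran from 23254 through 25579 to 27614 TPM and from 22446 through 24119 to 24972 TPM, differed by 0.07 ± 0.033 with a limma adjusted p of 0.566. Neither difference passed the test over all genes, and with the copy weighted by its length the unadjusted limma p of mt-Nd4 was 0.0520.

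The other summed differences were small, and each interval included 0. mt-Atp6 had a log2 difference of 0.07 (95% interval -0.0099 to 0.155), mt-Co1 0.05 (-0.017 to 0.118), mt-Atp8 0.04 (-0.041 to 0.130) and mt-Co2 0.03 (-0.040 to 0.092). mt-Nd5, mt-Nd1 and mt-Nd2 stood at 0.04, 0.04 and 0.02. The rRNAs and mt-Nd6 had the largest estimates and also the widest intervals, at 0.10 (-0.051 to 0.257) for mt-Rnr1, 0.08 (-0.071 to 0.223) for mt-Rnr2 and 0.10 (-0.175 to 0.381) for mt-Nd6. Single libraries moved these estimates: mt-Rnr1 and mt-Rnr2 were at 0.07 and 0.04 without Poly(I:C) replicate 9, and mt-Nd6 ran from 0.04 without saline replicate 3 to 0.19 without saline replicate 8. On the lower side, mt-Nd4l had -0.05 (-0.140 to 0.044), mt-Cytb -0.02 (-0.080 to 0.050) and mt-Nd3 -0.01 (-0.122 to 0.103). The limma adjusted p (Benjamini-Hochberg) of the 15 sums ran from 0.546 to 0.967. Of the summed mRNAs other than mt-Nd6, no 95% interval reached beyond 0.155 on the log2 scale in either direction.

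In sign, 12 of the 15 sums were higher among Poly(I:C) offspring, with a median log2 difference of 0.04, beside 29.0% of all tested genes higher and an all-gene median of -0.03. TPM is relative, so these signs depend on what is held constant. After median-of-ratios scaling, which brought the all-gene split to 50.2% lower, 14 of the 15 sums were higher, and mt-Cytb and mt-Nd3 changed sign. Scaling to the rows that are not members also gave 14 of 15. When every member was scaled to the members' own summed TPM, 8 of 15 were higher, and mt-Co2, mt-Nd1, mt-Nd2 and mt-Nd5 changed sign. On that last scale mt-Nd4l stood at -0.09, mt-Cytb at -0.05 and mt-Nd3 at -0.05, with limma adjusted p (Benjamini-Hochberg) of 0.516, 0.512 and 0.761.

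**Figure D2:**
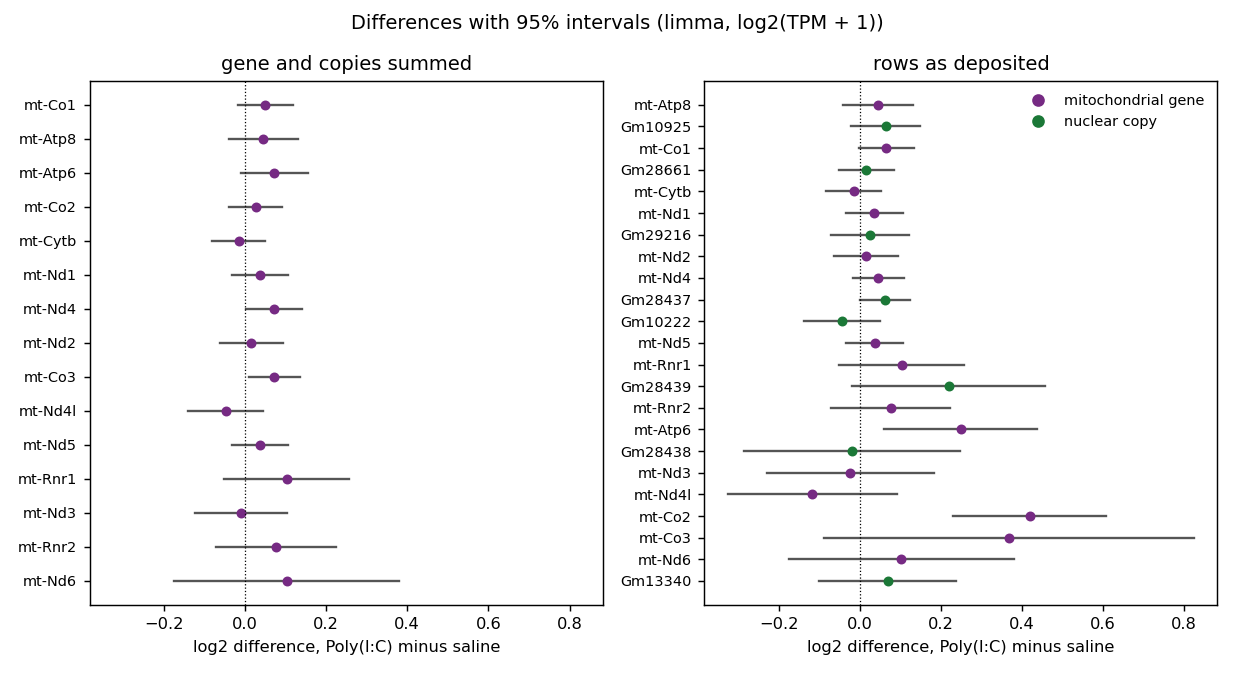
Log2 difference between Poly(I:C) and saline libraries with 95% limma intervals, for gene and copies summed (15 sums) and for the rows as deposited (23 rows, gene rows and copy rows in separate colours). Most points lie within 0.1 of 0 when summed, and among the single rows mt-Co2, at 0.42, and mt-Atp6, at 0.25, lie farthest from 0 relative to their intervals.

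Taken as deposited, the row of mt-Co2 differed most. It ran from 860 through 1118 to 1357 TPM among Poly(I:C) offspring and from 715 through 809 to 1097 TPM among saline offspring. All 9 Poly(I:C) libraries lay above the saline median and 6 lay above the highest saline library, so the groups overlapped only in part. The means were 1145 ± 156 TPM (SD, n = 9) and 857 ± 133 TPM (SD, n = 8), a log2 difference of 0.42 ± 0.090 (SE) with a 95% interval from 0.231 to 0.608. The limma p was 0.000161 and the adjusted p (Benjamini-Hochberg) 0.366, with a range from 0.144 to 0.782 over the alternative settings, and the row did not pass. Its copy Gm28661 ran from 38513 through 41321 to 44137 TPM and from 38040 through 40381 to 43517 TPM, with a log2 difference of 0.02 and a limma adjusted p (Benjamini-Hochberg) of 0.894. The difference in the mt-Co2 row amounted to 288 TPM, beside a sum of 41929 TPM over the 17 libraries.

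**Figure D3:**
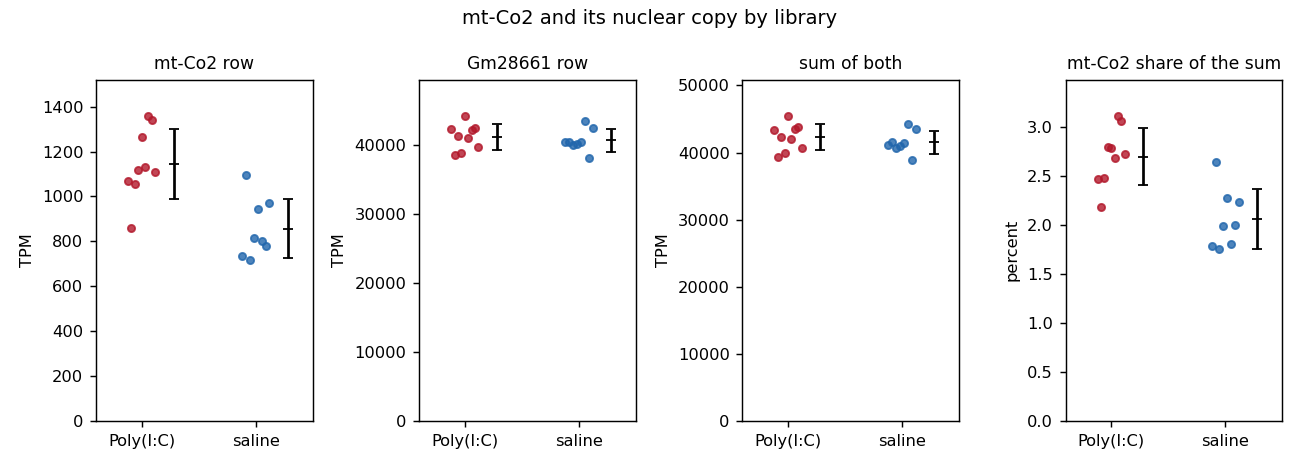
The mt-Co2 row, the Gm28661 row, their sum (all in TPM) and the mt-Co2 share of the sum in percent, 1 point per library, with means and SD for 9 Poly(I:C) and 8 saline libraries. The row and the share are higher in most Poly(I:C) libraries, with means of 1145 and 857 TPM and of 2.70% and 2.06%, while the sums of 42289 and 41524 TPM overlap.

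The share of a pair's sum that the table gives to the mitochondrial row shows this split directly. mt-Co2 held from 2.18% through 2.73% to 3.11% of its sum with Gm28661 among Poly(I:C) offspring and from 1.76% through 1.998% to 2.64% among saline offspring. The means were 2.70% ± 0.292 (SD, n = 9) and 2.06% ± 0.306 (SD, n = 8), with 6 of 9 Poly(I:C) libraries above the highest saline library. A two-sided exact permutation test over 24310 splits gave p = 0.00107, and 0.00856 after Benjamini-Hochberg adjustment over the 8 pairs. The mt-Co2 row was already known to lead among the members when the pairs were chosen, so this p is not independent support for it. Between the annotated transcripts, the 3 windows of mt-Co2 that hold a base of its stop codon are all that distinguish gene from copy. Whether chromosome 1 carries the same bases past the annotated end of Gm28661 was not examined. Whether the share follows reads over the stop codon of mt-Co2 was not tested.

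The other 7 pairs did not pass the same exact test. mt-Atp6 held 4.80% ± 0.754 of its sum with Gm10925 (SD, n = 9) and 4.21% ± 0.350 (SD, n = 8), with 7 Poly(I:C) libraries above the highest saline library, 2 below the lowest, and an exact adjusted p of 0.245. mt-Co3 held 3.41% ± 1.16 and 2.77% ± 0.903 of its sum with Gm28437, with an exact adjusted p of 0.460. mt-Nd4l held 6.71% ± 1.03 and 6.99% ± 0.762 of its sum with Gm10222, and mt-Nd3 41.6% ± 9.12 and 41.5% ± 6.92 of its sum with Gm28438, with exact adjusted p of 0.727 and 0.992. In the pairs with more distinguishing sequence, mt-Nd4 held 82.7% ± 2.09 and 84.3% ± 3.04 of its sum with Gm28439, and mt-Co1 held 63.4% ± 1.07 and 62.7% ± 1.86 of its sum with Gm29216. Their exact adjusted p were 0.460 and 0.574. Against the diverged Gm13340, mt-Co1 held 99.998% in both groups, and Gm13340 itself had means of 1.06 ± 0.189 (SD, n = 9) and 0.970 ± 0.234 TPM (SD, n = 8).

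**Figure D4:**
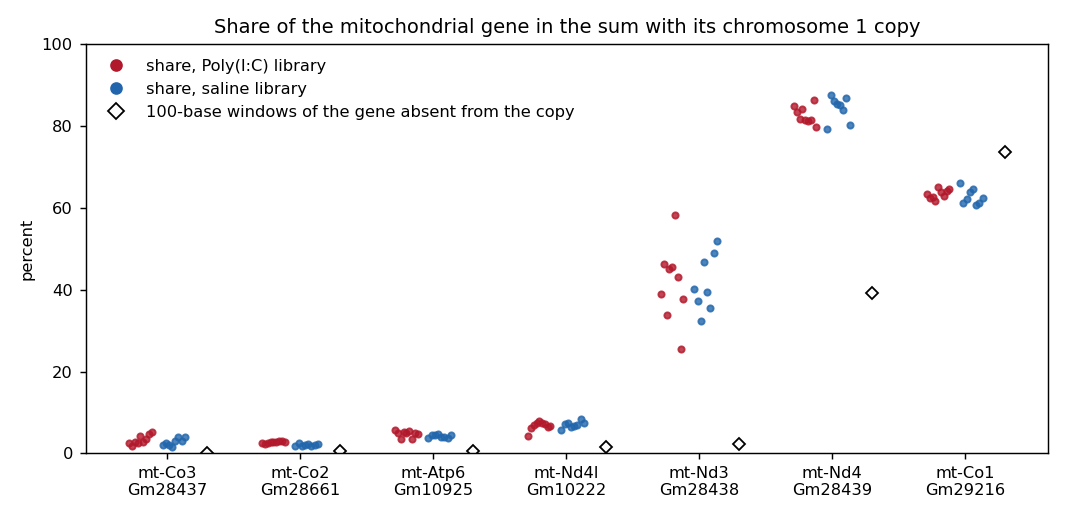
Percent of the sum of a gene and its chromosome 1 copy that the deposited table gives to the mitochondrial gene, 1 point per library (9 Poly(I:C), 8 saline), with diamonds for the percent of the gene's 100-base windows absent from the copy. Group means lie between 2.06% and 6.99% for mt-Co3, mt-Co2, mt-Atp6 and mt-Nd4l, at 41.6% and 41.5% for mt-Nd3, and at 62.7% or more for mt-Nd4 and mt-Co1, and the groups overlap in all 7 pairs.

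The rows of mt-Co3, mt-Co2, mt-Atp6, mt-Nd4l and mt-Nd3 also varied more between libraries than their sums. Within groups, the coefficient of variation of mt-Co3 was 35.5% for the row and 4.17% for the sum with Gm28437. The corresponding values were 14.5% and 4.41% for mt-Co2, 14.5% and 5.81% for mt-Atp6, 15.1% and 6.81% for mt-Nd4l, and 16.1% and 8.46% for mt-Nd3. In each of these pairs the sum was steadier than the gene row. The copy rows Gm28437, Gm28661, Gm10925 and Gm10222, which make up most of those sums, varied by 3.87%, 4.33%, 5.89% and 6.88%, and Gm28438 by 20.8%. For mt-Nd4 and mt-Co1, whose own rows held most of the sum, the row at 4.04% and 4.45% and the sum at 4.71% and 4.56% varied alike, and the copy rows Gm28439 and Gm29216 varied more, at 18.3% and 6.89%.

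Of the 23 member rows as deposited, 18 were higher among Poly(I:C) offspring, again beside 29.0% of the 14144 rows tested. A limma p under 0.05 was reached by 3 of the 23, beside 8.75% of all rows: mt-Co2, mt-Atp6 and Gm28437. All 3 were higher among Poly(I:C) offspring, beside 0.898% of all rows under that threshold and higher. Over the alternative settings the count of member rows ran from 2, as without a filter, to 5, as without Poly(I:C) replicate 2. mt-Atp6, with means of 2622 ± 422 (SD, n = 9) and 2193 ± 247 TPM (SD, n = 8), had a log2 difference of 0.25 and a limma adjusted p (Benjamini-Hochberg) of 0.486. Gm28437, at 18328 ± 718 and 17552 ± 668 TPM, had 0.06 and a limma adjusted p (Benjamini-Hochberg) of 0.569. Of the rows above a p of 0.05, mt-Co3 had the largest difference, 0.37 with a 95% interval from -0.088 to 0.824, with means of 651 ± 234 (SD, n = 9) and 501 ± 169 TPM (SD, n = 8). Gm28439 stood at 4378 ± 659 and 3797 ± 848 TPM with a log2 difference of 0.22, and mt-Nd4l at 1113 ± 198 and 1197 ± 140 TPM with -0.12, which was -0.04 without Poly(I:C) replicate 1. mt-Nd3, at 1661 ± 290 and 1681 ± 242 TPM, and Gm28438, at 2390 ± 584 and 2383 ± 369 TPM, had differences of -0.02 and -0.02 that changed sign with the scaling. Gm10222 (-0.04), Gm10925 (0.06), Gm29216 (0.02), Gm13340 (0.07), mt-Co1 (0.07) and mt-Nd4 (0.05) had limma adjusted p (Benjamini-Hochberg) from 0.576 to 0.889. The groups overlapped in all 38 rows and sums compared, where a gene without a copy counts both as a row and as a sum. The share of all genes whose groups overlap was not computed, so this count has no background beside it.

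Across libraries, 3 relations among the members were examined, with permutation p over 100000 resamples. Benjamini-Hochberg adjustment was made within each scale, over the 3 relations as percentages and over the 2 repeated on the log2 scale. The tRNA sum was 0 throughout and gave no correlation. Summed rRNA against summed heavy-strand mRNA, both as percent of the members' TPM, gave r = -0.999 and rho = -0.995 (n = 17), with the smallest p that the permutations can give, 1e-05, and 3e-05 adjusted. Since those 2 parts make up nearly all of the same total, that value follows from how the percentages were formed. On the log2 scale relative to the rows that are not members the relation was r = 0.411 (permutation p = 0.101, adjusted 0.107) and rho = 0.373 (p = 0.142, adjusted 0.142), and r = 0.237 without the 2 farthest libraries. mt-Nd6 against heavy-strand mRNA on that scale gave r = 0.407 (permutation p = 0.107, adjusted 0.107) and rho = 0.488 (p = 0.0479, adjusted 0.0958), and r = 0.493 without the 2 farthest libraries. As percent of the members' TPM mt-Nd6 gave r = 0.136 (permutation p = 0.609, adjusted 0.609) and rho = 0.0490 (p = 0.855, adjusted 0.855), and r = -0.0718 without the 2 farthest libraries. The mt-Co2 share and the mt-Co1 share of their pairs gave r = 0.178 (permutation p = 0.492, adjusted 0.609) and rho = 0.218 (p = 0.399, adjusted 0.599), and r = 0.334 without the 2 farthest. Within the Poly(I:C) and the saline group r was 0.243 and 0.456 for rRNA on the log2 scale, 0.134 and 0.564 for mt-Nd6 on that scale, and 0.307 and -0.189 for the shares. Of these relations, only the rRNA percentages passed the adjusted threshold.

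The nuclear genes that serve mitochondrial RNA were described from a list of 86, of which 84 were in the table and 83 were tested. No member of it passed the limma test. The Poly(I:C) mean was higher for 20 and lower for 63, and the median log2 difference was -0.04. That is 75.9% lower, beside 71.0% of all genes, and after median-of-ratios scaling 45 of 83 were lower, with a median of -0.0014. At an unadjusted limma p of 0.05 there were 0 higher and 6 lower, beside 8.75% of all genes in either direction. By role, the lower members were 6 of 10 for transcription, 7 of 9 for replication, 14 of 19 for processing and modification, 15 of 18 for stability and polyadenylation, 11 of 11 for translation factors, 6 of 9 for membrane insertion and 5 of 8 for regulators of biogenesis. A gene listed under both transcription and processing is counted in each, so the roles add to more than the whole list. The 11 of 11 for translation factors became 6 of 11 under median-of-ratios scaling.

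Ssbp1, the mitochondrial single-stranded DNA-binding protein, ran from 16.2 through 18.1 to 21.5 TPM among Poly(I:C) offspring and from 18.9 through 20.6 to 24.5 TPM among saline offspring. Its log2 difference was -0.18 ± 0.058 (SE), with a limma adjusted p (Benjamini-Hochberg) of 0.488. Oxa1l, which inserts newly made subunits into the inner membrane, ran from 21.2 through 23.8 to 24.3 TPM and from 22.6 through 25.4 to 27.7 TPM, with a difference of -0.12 and the same limma adjusted p of 0.488. These 2 genes had the smallest p of the list. Angel2 stood at -0.12, Trmu, which thiolates mitochondrial tRNAs, at -0.25, the translation elongation factor Tsfm at -0.16 and the RNA-binding protein Fastkd2 at -0.14, with limma adjusted p (Benjamini-Hochberg) from 0.511 to 0.569.

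Polrmt, the mitochondrial RNA polymerase, stood at 22.3 ± 2.75 TPM among Poly(I:C) offspring (SD, n = 9) and 23.9 ± 1.42 TPM among saline offspring (SD, n = 8), and Mterf3, a regulator of its output, at 18.3 ± 2.53 and 20.1 ± 2.23 TPM. Their log2 differences were -0.10 and -0.13. Of the replication enzymes, the topoisomerase Top1mt stood at -0.09 and the polymerase Polg at -0.01. The tRNA-modifying enzyme Trit1 stood at -0.16, and Hsd17b10, a subunit of the nuclease complex that cuts tRNA ends, at 0.01. The most abundant of the stability genes, Fastk, measured 133.9 ± 6.30 and 134.0 ± 10.3 TPM. The translation activator Taco1 stood at -0.09, the elongation factor Tufm at -0.0032, the copper chaperone Cox17 at 0.06 and the complex IV assembly factor Surf1 at -0.04. The coactivator Ppargc1b and the nuclear receptor Esrra, both regulators of mitochondrial biogenesis, stood at -0.08 and 0.06. None of these passed the limma test, and Polg and Tufm were higher among Poly(I:C) offspring under median-of-ratios scaling.

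Markers of the tissue were examined in the same libraries. Summed neuron markers ran from 4634 to 5566 TPM among Poly(I:C) offspring and from 4685 to 5549 TPM among saline offspring, and of the 3 muscle genes Ckm and Myh6 stayed at or under 0.12 TPM. The third, Acta1, ran from 5.62 to 8.78 TPM among Poly(I:C) offspring and from 5.82 to 7.08 TPM among saline offspring, with 8 of 9 Poly(I:C) libraries above the saline median. Summed oligodendrocyte markers ran from 1491 to 3094 TPM and from 1611 to 2129 TPM, with Poly(I:C) replicate 7 the highest. On average 6 of 6 were higher among Poly(I:C) offspring, beside 29.0% of all tested genes, but Mog was lower by median. Striatal markers ran from 95.9 to 193 TPM and from 100.4 to 113 TPM, again with Poly(I:C) replicate 7 the highest. On average 6 of 6 were higher, beside the same 29.0%, but Drd1 and Rgs9 were lower by median. Olfactory bulb markers ran from 15.7 to 19.0 TPM and from 16.4 to 59.4 TPM, with saline replicate 7 the highest. In this sum 0 of 9 Poly(I:C) libraries lay above the saline median. On average 0 of the 4 olfactory bulb markers tested were higher, beside the same 29.0%. An unadjusted limma p under 0.05 was reached by 1 of them, beside 8.75% of all tested genes. RNAs retained in the nucleus, such as Malat1 and Meg3, ran from 1148 to 2014 TPM and from 1520 to 2219 TPM. Of the 4 tested, 0 were on average higher among Poly(I:C) offspring, beside 29.0% of all tested genes, but Malat1 was higher by median. 0 markers passed the limma test, and the part of these lists in the mitochondrial values was not tested. Without replicate 7 of both groups the members' percent of TPM differed by 0.671 percentage points, the mt-Co2 row by 0.37 on the log2 scale and its share of the pair by 0.578 percentage points.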

How the data were processed

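The authors deposited 1 table of TPM values for 48440 genes in 17 libraries (9 Poly(I:C), 8 saline), and the submitters' processing notes name mm10, RSEM 1.2.31, STAR 2.5.1b and Trim Galore 0.4.0. Not given in the sources used here are the annotation release, the strand setting and any filters. TPM keeps no depth: the labels state 25 M reads (in units of 1e+06), and no interval of counts was computed. Columns were tied to samples by the labels. Names, coordinates, transcripts and sequences came from GENCODE M21 on GRCm38, which may not be the authors' annotation, and 48058 identifiers matched a symbol.

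Each mitochondrial gene was summed with its copies, found with BLAST 2.17.0 at an identity of at least 97%, and rows were also tested as deposited. Genes with at least 1 TPM in at least 8 libraries were compared with limma 3.58.1 (R 4.3.3, lmFit, eBayes with trend) as a two-sided test of log2(TPM + 1), adjusted by Benjamini-Hochberg over all genes. A fold on this scale understates changes of low genes. Intervals are at 95%. Shares were tested by exact permutation. The fit was tested on simulated data. Other tools were scipy 1.17.1, pandas 2.3.3, numpy 2.4.6 and matplotlib 3.10.9 in Python 3.11.15.

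Named were all mRNAs, rRNAs and copies and, of each list of nuclear genes, the 2 with the smallest p and the most abundant. The tRNA mt-Tl1 was chosen for its length after the zeros were seen, and the marker genes named came from the marker lists. The members and lists were chosen with earlier results of these data known. Alternatives were pseudocounts of 0.1 and 0.5, no filter, a minimum of 5 TPM, median-of-ratios and quantile scaling, scaling to non-member rows, a rank test, the replicate number as a block, and leaving out each library or replicate 7 of both groups. Length-weighted sums (by gene and by complex), scaling within the members and adding Gm13341, a further copy of mt-Co2, were chosen after seeing the data. P-values measure only the spread between these animals.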

Additional observations from a re-analysis of the deposited data

Results flagged for a closer look

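In 7 of 140 groups of values, 1 library lay apart from the others of its group by more than a gap that chance exceeds in about 1 group in 20, so about this many are expected by chance. Of these, 5 concern mitochondrial transcripts. Poly(I:C) replicate 5 had the highest mt-Nd2 level, 25533 TPM, with the other 8 between 20871 and 22899 TPM, and also the highest sum of mt-Nd4l and Gm10222, 19000 TPM, with the others between 15487 and 17236 TPM. Without this library the log2 difference of mt-Nd2 changed sign, to -0.0087. Poly(I:C) replicate 1 had the lowest share of mt-Nd4l in its sum with Gm10222, 4.32%, with the others between 6.22% and 7.85%. Saline replicate 3 had a ratio of mt-Rnr1 to mt-Rnr2 of 1.33, with the others between 1.18 and 1.25. Poly(I:C) replicate 8 had a ratio of mt-Atp8 to mt-Atp6 of 1.25, with the others between 1.07 and 1.14. Of the nuclear genes, Tsfm stood at 6.32 TPM in Poly(I:C) replicate 6, with the others between 8.66 and 10.1 TPM, and Cox17 at 49.8 TPM in saline replicate 8, with the others between 55.2 and 58.8 TPM.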

How the results depend on the processing

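Of 1146 values recomputed for 64 results, 1087 kept their direction and their side of the threshold. The count of genes past an adjusted p of 0.05 (limma), 0 as reported, was 2 under quantile normalization with copies summed (1110008P14Rik and Gm21093), 2 in either table with the replicate block (Rps27rt and Gm21093), and from 0 to 1 on leaving out each library (Rps27rt without saline replicate 4). These genes, none a member, fall outside the rule for named genes and were named after their values were seen. Under median-of-ratios scaling 567 genes were higher and 474 lower at an unadjusted p of 0.05, against 126 and 1111 as deposited.

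Log2 differences that changed sign were all small. For the rank test the value given is a difference of group medians, whereas the others are differences of means. Under median-of-ratios scaling, scaling to non-member rows and the rank test mt-Cytb became 0.024, 0.011 and 0.010, the mt-Nd3 row 0.015, 0.0020 and 0.058, and Gm28438 0.021, 0.0078 and 0.0019. With the first 2 of these scalings the sum of mt-Nd3 became 0.029 and 0.016, and with the first Polg became 0.029 and Tufm 0.035. Scaled within the members, mt-Co2 summed became -0.014, mt-Nd1 -0.0035, mt-Nd2 -0.024, mt-Nd5 -0.0028, Gm28661 -0.023 and Gm29216 -0.015. Gm29216 became -0.057 under quantile normalization and Gm28661 -0.0019 without replicate 7 of both groups. Leaving out each library gave ranges of -0.026 to 0.0012 for mt-Cytb, -0.0087 to 0.034 for mt-Nd2, -0.040 to 0.015 for mt-Nd3 summed, -0.071 to 0.029 for its row, -0.094 to 0.057 for Gm28438 and -0.0072 to 0.055 for Gm29216.

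For the shares, leaving out each library gave -2.03 to 2.04 percentage points for mt-Nd3, -0.448 to 0.0193 for mt-Nd4l and 0.468 to 0.748 for mt-Atp6, whose exact adjusted p was 0.0479 without Poly(I:C) replicate 7. As a log2 ratio of gene to copy the mt-Nd3 difference was -0.0058. The exact adjusted p of the mt-Co2 share ran from 0.0035 to 0.0189 over the single libraries left out. With the replicate block its difference was 0.635 percentage points and the exact sign-flip p, adjusted over the pairs, 0.125. With 256 sign flips the smallest p is 0.0078, or 0.0625 after adjustment for a pair that leads alone, so that test could not pass for such a pair and says nothing about stability. Same-numbered libraries correlated at -0.222 to 0.0824 in their deviations, and 1 of 8 correlated best with its own number. These values show no pairing by number, and whether such libraries share more than a number was not tested. For the correlations, rRNA against heavy-strand mRNA became 0.411 on the log2 scale, and mt-Nd6 became -0.0718 without the 2 farthest libraries. Quantile normalization gave no value for 14 results, whose rows had the same rank in every library, and Gm13340 had none at a minimum of 5 TPM. Apart from what the settings themselves change, the cause was not tested.

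Depth could not be read from TPM, so the counting error of low rows such as Gm13340 is unknown.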
